A study of Homo sapiens with 2 samples.

Results

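The S100 genes encode small calcium-binding proteins, and 9 of them were followed here in KASUMI-1, a line of human acute myeloid leukaemia cells with the RUNX1-RUNX1T1 fusion. They were S100A4, S100A6, S100A8, S100A9, S100A10, S100A11, S100A12, S100A13 and S100P, chosen by gene symbol from a table of 50868 genes. The groups were KASUMI-1 cells infected with a lentivirus labelled USP6, after the deubiquitinase, and the same cells given a lentivirus with the label pccl, read here as the control virus. The labels do not describe the promoter of the construct, the time after infection or any selection of infected cells, and both groups come from 1 cell line. RNA sequencing gave 1 library per group, which leaves every difference without replicates, and none was tested.

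S100 proteins carry a pair of EF-hand motifs, most act as dimers, and calcium binding exposes a surface that docks onto target proteins. Inside the cell they bind annexins, myosin and the cytoskeleton. Some are released and act on receptors such as RAGE, the receptor for advanced glycation end products (gene AGER), and TLR4. S100A8 and S100A9 form calprotectin, a major protein of the neutrophil and monocyte cytosol, and S100A12 is their close neighbour in gene order and in expression. S100A10 is the family member that has lost calcium binding and pairs with annexin A2.

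The libraries held 12518795 counts (USP6) and 12306442 counts (pccl), of which the mitochondrial genome took 45.6% in the USP6 library and 49.9% in the pccl library. USP6 itself had 70 counts in the USP6 library and 8 in the pccl library. Of 10 markers of KASUMI-1 cells and myeloblasts, 9 were expressed, KIT and RUNX1T1 among them. Expressed here means at least 1 FPKM (fragments scaled by gene length and by the total count) in the higher library. The USP6 gene did not reach this level, with 0.340 FPKM in the USP6 library and 0.0396 in the pccl library. Intervals below are at 95% and cover counting error only, since reads copied by PCR are not independent molecules and cultures were not repeated. In cells sequenced in bulk, fewer cells of a type and less RNA per cell cannot be told apart.

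Of the 9 genes, 4 were detected and 5 had a count of 0 in both libraries. S100A11, S100A4 and S100A13 were higher in the USP6 library, by between 2.67-fold and 3.14-fold, and S100P was lower. S100A6, S100A8, S100A9, S100A10 and S100A12 were not detected. Counts of 0 in both libraries were found in 31.4% of 19665 protein-coding genes, against 55.6% of these 9.

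**Figure D1:**
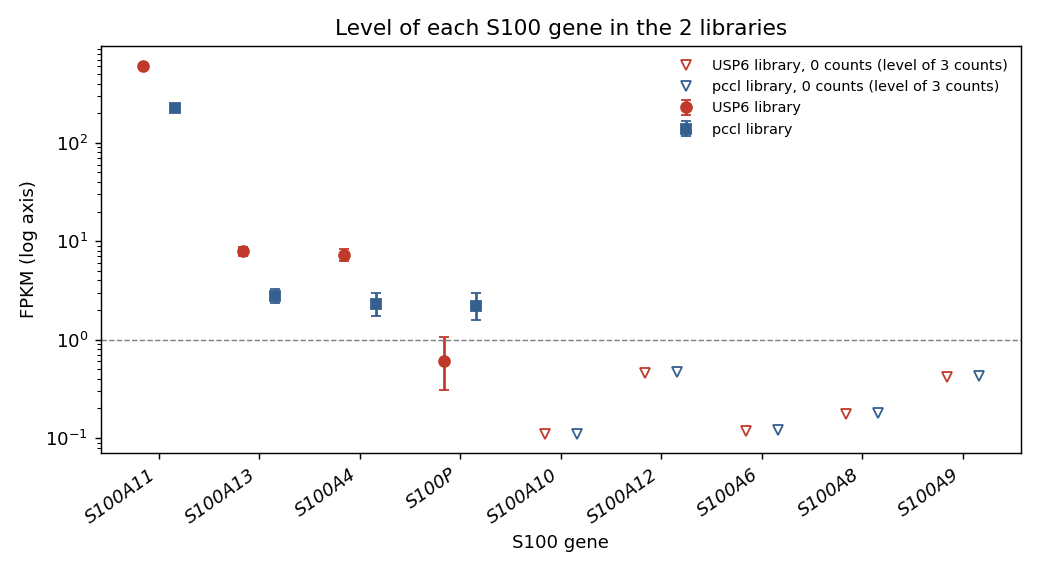
FPKM (log axis) of the 9 S100 genes in the USP6 library (red circles) and the pccl library (blue squares), with exact Poisson 95% intervals. Open triangles mark genes with 0 counts, at the level that 3 counts would give, and the dashed line is 1 FPKM. S100A11 stands at 609 FPKM in the USP6 library and 228 FPKM in the pccl library, and the other detected genes lie below 10 FPKM.

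The 250 bases upstream of the start are shown for the 4 detected genes and for S100A6 and S100A10, undetected genes with the most CpG sites of the 9, because they let a reader compare the upstream sequence of detected and undetected genes. The sequences are those of RefSeq (GRCh38.p14), read 5′ to 3′ on the gene's strand, and where RefSeq lists several starts the outermost one inside the gene's locus was taken. Capitals mark matches on either strand to the motifs searched. For RUNX factors these were TGTGGT and, as a second form searched on its own, TGCGGT. For the myeloid factor PU.1 the letters were GAGGAA, and for C/EBP factors TTGCNNAA, in which N is any base. For AP-1 they were TGA and TCA with any base between them. The TATA box of core promoters was searched as TATAAA, and the binding motif of SP1 as GGGCGG.
S100A11 (chr1:152037005-152037254, minus strand): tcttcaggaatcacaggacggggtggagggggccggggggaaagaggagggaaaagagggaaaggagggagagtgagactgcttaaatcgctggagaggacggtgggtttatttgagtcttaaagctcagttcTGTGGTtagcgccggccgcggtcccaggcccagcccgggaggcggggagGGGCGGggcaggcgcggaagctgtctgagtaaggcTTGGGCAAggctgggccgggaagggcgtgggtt
S100A4 (chr1:153545807-153546056, minus strand): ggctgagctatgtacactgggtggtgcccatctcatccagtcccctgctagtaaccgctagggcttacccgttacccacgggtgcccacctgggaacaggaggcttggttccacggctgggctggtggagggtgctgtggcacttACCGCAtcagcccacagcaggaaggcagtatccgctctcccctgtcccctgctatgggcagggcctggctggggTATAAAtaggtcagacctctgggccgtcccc
S100A13 (chr1:153627506-153627755, minus strand): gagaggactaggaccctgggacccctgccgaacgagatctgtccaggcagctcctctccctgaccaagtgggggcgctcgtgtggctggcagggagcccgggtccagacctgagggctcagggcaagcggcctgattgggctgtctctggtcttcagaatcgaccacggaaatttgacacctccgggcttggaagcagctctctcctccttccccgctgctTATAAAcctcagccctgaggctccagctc
S100P (chr4:6693628-6693877, plus strand): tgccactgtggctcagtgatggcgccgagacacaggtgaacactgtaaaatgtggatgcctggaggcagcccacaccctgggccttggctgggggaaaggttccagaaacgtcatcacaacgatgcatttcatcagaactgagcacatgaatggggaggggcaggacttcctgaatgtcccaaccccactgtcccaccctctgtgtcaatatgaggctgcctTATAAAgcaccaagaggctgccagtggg
S100A6 (chr1:153535992-153536241, minus strand): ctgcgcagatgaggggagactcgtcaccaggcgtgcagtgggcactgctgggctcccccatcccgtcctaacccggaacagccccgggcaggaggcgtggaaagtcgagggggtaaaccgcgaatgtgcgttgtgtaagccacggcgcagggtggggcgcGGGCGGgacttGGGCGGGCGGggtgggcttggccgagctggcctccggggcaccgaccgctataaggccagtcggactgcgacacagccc
S100A10 (chr1:151993860-151994109, minus strand): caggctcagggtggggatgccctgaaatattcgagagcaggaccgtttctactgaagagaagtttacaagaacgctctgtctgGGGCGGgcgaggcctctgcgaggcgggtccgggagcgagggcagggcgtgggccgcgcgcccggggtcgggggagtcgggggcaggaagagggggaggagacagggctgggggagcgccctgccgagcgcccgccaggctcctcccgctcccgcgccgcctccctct

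Detected and undetected genes did not fall apart by the CpG sites of these windows. S100A11 had 15 CpG sites, S100A13 had 10, S100A4 had 7 and S100P had 4, while the undetected S100A6 and S100A10 had 24 each, S100A9 had 4, S100A8 had 2 and S100A12 had 1. The median over 35093 upstream windows of RefSeq starts was 11. A TATAAA match stood in S100A4, S100A13 and S100P, 28 to 31 bases before the start at its far end. The undetected S100A9 and S100A12 also held it, with the far end 29 bases before the start in S100A9 and 8 in S100A12. This match is found in 10.7% of all windows. S100A11 instead had GGGCGG (42.6% of all windows), TGTGGT (10.97%) and, on the opposite strand, TTGCNNAA (9.05%). S100A4 had TGCGGT on the opposite strand (5.84%). S100A6 had 3 matches to GGGCGG, 2 of which overlap each other, and S100A10 had 1. Of the windows not shown, S100A9 held TGTGGT and GGGCGG and S100A12 held TTGCNNAA. GAGGAA (23.6%) was found in S100A8 and S100A9 and in none of the 6 windows shown, and the AP-1 letters (6.57%) in S100A12 alone of the 9. No matches to different motifs overlapped in the windows shown, and a match to these letters is not evidence of binding.

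S100A11 (ENSG00000163191, chromosome 1 from 152032506 to 152047907, minus strand) encodes calgizzarin, which binds annexin A1. It had 5186 counts in the USP6 library and 1908 in the pccl library. At 609 FPKM (593 to 626) against 228 FPKM (218 to 238), it was 2.67-fold higher in the USP6 library (2.53 to 2.82). Among genes with a count it ranked 44 of 18119 in the USP6 library and 88 of 17858 in the pccl library. These ranks use the deposited FPKM, whose gene length counts overlapping exons of many genes repeatedly. The 680 bases used for S100A11 equal its merged exons, which favours its rank. It alone made up 97.5% of the summed FPKM of the 9 genes in the USP6 library and 96.9% in the pccl library. The table lists 11 pseudogenes of S100A11, all with 0 counts, so any reads that fit both a copy and the gene are not seen at the copies.

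S100A4 (ENSG00000196154, chromosome 1 from 153543613 to 153550136, minus strand), known as metastasin, binds non-muscle myosin. It had 182 counts and 7.25 FPKM (6.24 to 8.38) in the USP6 library, and 57 counts and 2.31 FPKM (1.75 to 2.99) in the pccl library. It was 3.14-fold higher in the USP6 library (2.32 to 4.30). S100A3, whose locus lies inside that of S100A4 on the same strand, had 0 counts in both.

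S100A13 (ENSG00000189171, chromosome 1 from 153618787 to 153631360, minus strand) takes part in the release of the growth factor FGF1, which has no signal peptide. It had 395 counts and 7.86 FPKM (7.11 to 8.68) in the USP6 library, and 137 counts and 2.77 FPKM (2.33 to 3.28) in the pccl library. It was 2.83-fold higher in the USP6 library (2.33 to 3.47). Its locus overlaps S100A1, on the opposite strand, and the gene AL162258.1, which together had 79 counts in the USP6 library and 49 in the pccl library. Whether the libraries kept the strand is not given, so reads in the shared stretch may have been split among these genes.

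S100P (ENSG00000163993, chromosome 4 from 6693069 to 6697170, plus strand) binds the membrane linker ezrin, and it is the only one of the 9 outside chromosome 1. It went the other way from the other detected genes. It had 12 counts and 0.602 FPKM (0.311 to 1.05) in the USP6 library, and 43 counts and 2.19 FPKM (1.59 to 2.96) in the pccl library. It was 3.65-fold lower in the USP6 library, with a wide interval of 1.89 to 7.59 from these few counts. S100P passed the level of 1 FPKM through the pccl library alone, whereas the other detected genes passed it in both libraries.

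The ratios of S100A11, S100A4 and S100A13 differed from each other by less than counting error, as their intervals overlap, and the interval of S100P overlaps none of them. Sizes were also set on the scale of log2((USP6 + 1)/(pccl + 1)) of FPKM, which holds down the differences of low genes. On it S100A11 had 1.41, S100A4 1.32, S100A13 1.23 and S100P -0.996, just short of the limit of -1 used for a lower gene. Thus 3 of the 4 expressed genes were at or past 1 and 0 at or past -1. Of all 10153 expressed genes, 13.7% were at or past 1 and 11.4% at or past -1. The median was 1.27 over the 4 genes and 0.06 over all expressed genes. S100P was past -1 with several other settings given in the closing section.

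**Figure D2:**
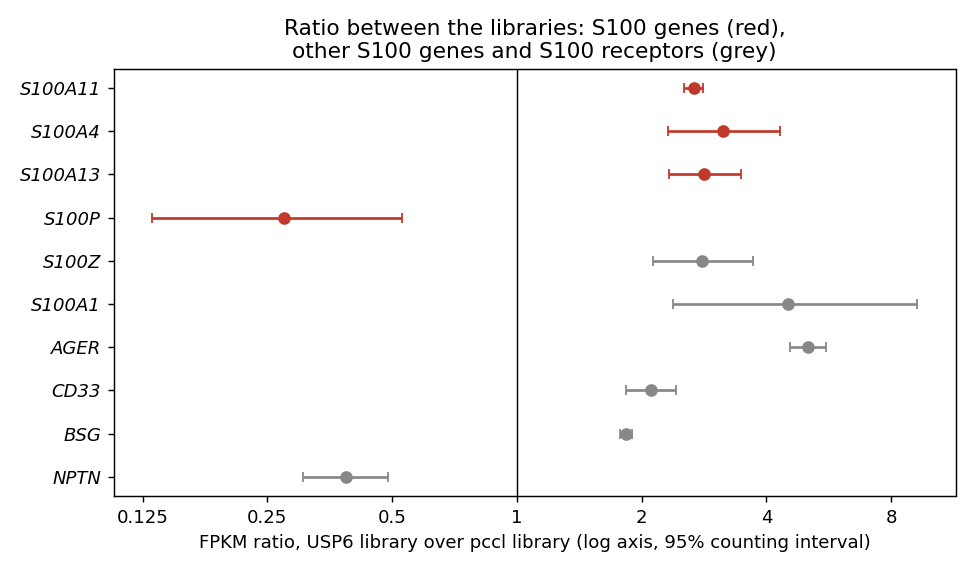
FPKM in the USP6 library over FPKM in the pccl library (log axis) with exact 95% counting intervals, for the 4 detected S100 genes (red) and for other S100 genes and S100 receptor genes (grey). S100A11, S100A4, S100A13, S100Z and S100A1 lie between 2.67 and 4.51, and S100P lies at 0.274.

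Per gene length, the order in the USP6 library was S100A11, S100A13, S100A4 and S100P. S100A13 and S100A4 did not differ beyond counting error there, while S100P lay below both. In the pccl library the order was the same, but S100A13, S100A4 and S100P had overlapping intervals with the deposited gene length. With that length, the level of S100A4 was 12.04 times that of S100P in the USP6 library and 1.05 times in the pccl library. The level of S100A11 was 77.5 times that of S100A13 in the USP6 library and 82.2 times in the pccl library. The deposited FPKM uses a gene length that adds up overlapping exons of different transcripts, 4013 bases for S100A13 and 2005 for S100A4, but 680 for S100A11. With merged exons, S100A13 had 14.2 FPKM in the USP6 library and 5.02 in the pccl library, and S100A4 had 14.2 FPKM in the USP6 library and 4.52 in the pccl library. On that length both genes stood level in the USP6 library. S100A11 kept 609 FPKM in the USP6 library and 228 in the pccl library, so its lead over both was smaller. S100P had 0.749 FPKM in the USP6 library and 2.73 in the pccl library with merged exons. It thus stood further below S100A4 and S100A13 in both libraries than with the deposited length. Plain FPKM ratios between the libraries are untouched by the length. The log2 ratio with 1 FPKM added is not, and its median over the 4 expressed genes was 1.38 in place of 1.27.

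The calgranulin genes, typical of mature neutrophils and monocytes, were not seen. S100A8 (chromosome 1 from 153390032 to 153391188), S100A9 (153357854 to 153361027) and S100A12 (153373706 to 153375649) had 0 counts in either library. For S100A8, 3 counts would have been 0.176 FPKM in the USP6 library and 0.179 in the pccl library. For S100A9 the same limit was 0.415 FPKM in the USP6 library and 0.422 in the pccl library. For S100A12 it was 0.463 FPKM in the USP6 library and 0.471 in the pccl library. Markers of the cells that hold these proteins were low as well. None of 10 monocyte markers reached 1 FPKM, their levels summing to 1.60 FPKM in the USP6 library and 2.01 in the pccl library. Of 11 neutrophil markers, 8 had 0 counts in both libraries and CSF3R, the receptor of granulocyte colony-stimulating factor, alone was expressed, with 1.33 FPKM in each library. A difference in S100A8, S100A9 or S100A12 between the libraries was not detectable at this depth.

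S100A6 and S100A10, which many cell types express, were listed at 0 counts too. S100A6 (chromosome 1 from 153534599 to 153536244) encodes calcyclin, and 3 counts would have been 0.119 FPKM in the USP6 library and 0.121 in the pccl library. S100A10 (chromosome 1 from 151982915 to 151994390) lies next to S100A11 with 38115 bases between them, and its limit was 0.109 FPKM in the USP6 library and 0.111 in the pccl library. The 1 S100A10 pseudogene in the table also had 0 counts. Other genes that many blood cells express were also low, among them a pair named here after their values were seen. VIM, which encodes the filament protein vimentin, had 115 counts (0.905 FPKM) in the USP6 library and 8 counts (0.0640 FPKM) in the pccl library. SRGN, which encodes the granule proteoglycan serglycin, had 7 counts (0.278 FPKM) in the USP6 library and 13 counts (0.526 FPKM) in the pccl library. Whether the RNA of S100A6 and S100A10 was absent from the cells or was lost before the table was made cannot be told apart from the deposited counts, and the same holds for the calgranulin genes.

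The other 12 S100 genes were mostly undetected. Of them, 8 had 0 counts in both libraries, and S100Z alone was expressed. S100Z (chromosome 5 from 76850001 to 76921650) had 205 counts and 6.11 FPKM in the USP6 library and 72 counts and 2.18 FPKM in the pccl library. It was 2.80-fold higher (2.13 to 3.71), inside the intervals of S100A11, S100A4 and S100A13 and on another chromosome. S100A1, a calcium sensor best known from heart muscle, had 55 counts (0.988 FPKM) in the USP6 library and 12 counts (0.219 FPKM) in the pccl library. It was 4.51-fold higher (2.38 to 9.24), and it shares part of its locus with S100A13. S100A2 had 0 counts in the USP6 library and 2 in the pccl library, and S100B had 3 in the USP6 library and 0 in the pccl library.

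Within 500 kb of the 8 genes on chromosome 1 lay 99 other genes outside the S100 family, of which 14 were expressed. Of these, 0 were at or past 1 and 1 was at or past -1, with a median log2 ratio of -0.14, counts too small to set apart from the 13.7% and 11.4% of all expressed genes. ILF2, which encodes a subunit of an RNA-binding complex, had 3.14 FPKM in the USP6 library and 15.0 in the pccl library, 4.78-fold lower. GATAD2B and SNAPIN followed, with log2 ratios of -0.66 and -0.50. The highest were TDRKH-AS1 (0.76, from 22 counts in the USP6 library and 5 in the pccl library), SLC27A3 (0.67) and DENND4B (0.52). Of the 55 protein-coding neighbours, 60% had 0 counts in both libraries, against 55.6% of the 9 S100 genes.

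**Figure D3:**
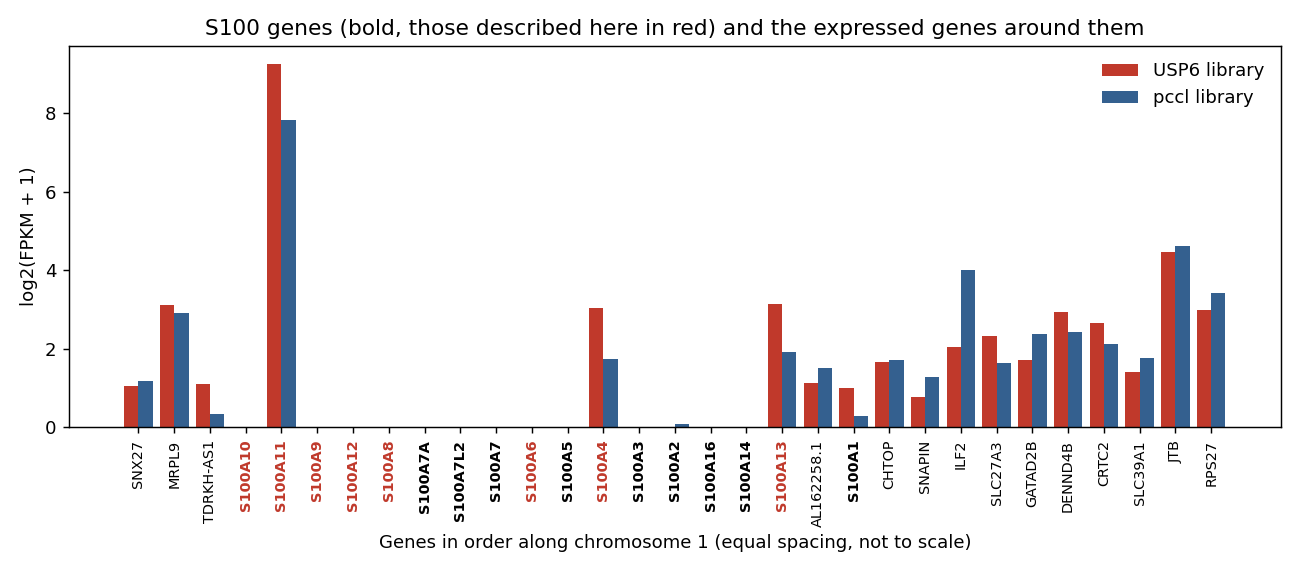
log2(FPKM + 1) in the USP6 library (red bars) and the pccl library (blue bars) for S100 genes (bold) and expressed genes around them, in order along chromosome 1 with equal spacing. S100A11 stands above its neighbours in both libraries, and most S100 genes between it and S100A13 are at 0.

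Annexins are S100 binding partners inside the cell. Of 13 annexin genes, 7 were expressed and none was at or past 1 or -1, with a median of -0.09. These 7 genes are too few to set apart from the 13.7% and 11.4% of all expressed genes. ANXA1, the partner of S100A11, had 15.7 FPKM in the USP6 library and 11.2 in the pccl library, 1.41-fold higher (1.28 to 1.55). ANXA2, the partner of S100A10, had 1.35 FPKM in the USP6 library and 1.15 in the pccl library, with an interval of its ratio that includes 1 (0.968 to 1.44). ANXA11, which binds S100A6, had 4.72 FPKM in the USP6 library and 5.46 in the pccl library. ANXA6 had the largest difference of the 7 expressed annexins, 1.88-fold higher (1.64 to 2.15).

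Of 13 other intracellular partners, 8 were expressed, 0 higher and 1 lower, with a median of -0.10. Such counts are too small to set apart from the 13.7% and 11.4% of all expressed genes. The lower one was CACYBP, the calcyclin-binding protein that links S100A6 to ubiquitin ligases, with 481 counts in the USP6 library and 1681 in the pccl library, 3.56-fold lower (3.21 to 3.94). Its locus overlaps MRPS14. MYH9, the heavy chain of the myosin that S100A4 binds, had 37.4 FPKM in the USP6 library and 21.9 in the pccl library, 1.71-fold higher (1.63 to 1.79). PPP5C had a log2 ratio of -0.40.

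Among 11 genes of receptors for released S100 proteins, 4 were expressed, 1 of them at or past 1 and 0 at or past -1. These counts are too small to set apart from the 13.7% and 11.4% of all expressed genes. The median of these 4 genes was 0.86, against 0.06 over all expressed genes. AGER (chromosome 6 from 32180968 to 32184324), which encodes RAGE, had 2418 counts and 43.1 FPKM in the USP6 library, and 472 counts and 8.56 FPKM in the pccl library. It was 5.04-fold higher in the USP6 library (4.56 to 5.57), more than S100A11, S100A4 or S100A13. BSG, which encodes basigin, and CD33, reported as a receptor of S100A9, were 1.83-fold (1.78 to 1.89) and 2.11-fold higher (1.84 to 2.42). NPTN, the neuroplastin gene, was 2.58-fold lower (2.04 to 3.29). TLR4 had 0 counts in both libraries, a gene named here after its value was seen. Of 8 adaptors of TLR4 signalling, 5 were expressed and none was at or past 1 or -1, with a median of -0.13. These too are too few to set apart from the shares over all expressed genes. MYD88 and TRAF6 had log2 ratios of -0.58 and -0.39, IRAK4 -0.13 and IRAK1 0.72.

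Of 29 other calcium-binding genes with EF-hands, 26 were expressed, 1 at or past 1 and 6 at or past -1, with a median of -0.36. Over all expressed genes these shares were 13.7% and 11.4%, and the median was 0.06. CALM2, which encodes calmodulin, had 3.999 FPKM in the USP6 library and 14.3 in the pccl library, 3.57-fold lower (3.22 to 3.96). GCA, CETN2, RCN2 and CALU were also past -1. CAPNS1, the small subunit of calpain, was the one at or past 1, with 22.96 FPKM in the USP6 library and 3.13 in the pccl library, 7.33-fold higher (6.46 to 8.33).

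Of 11 transcription factors known in myeloid cells, 9 were expressed, 2 at or past 1 and 2 at or past -1, with a median of -0.03. These counts are too small to set apart from the shares over all expressed genes, 13.7% and 11.4%. CEBPA and SPI1 (PU.1), which drive myeloid differentiation, had log2 ratios of 1.79 and 1.29, and the repressor gene GFI1 and HIF1A -3.92 and -1.25.

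GC content moved with the ratios in these libraries, with a Spearman correlation of 0.40 across 10105 expressed genes, which share both libraries and are not independent replicates. The longest transcripts of S100A4, S100A13, S100A11 and S100P hold 55.2%, 55.1%, 54.2% and 52.8% GC, and that of S100Z 37.9%. Centred on the trend of all expressed genes with GC, the log2 ratio was 1.20 for S100A11, 1.05 for S100A4, 0.98 for S100A13 and -1.14 for S100P. S100A13 then lay just under 1 and S100P past -1, so that 2 genes were higher and 1 lower, and S100Z came to 1.52. AGER stayed at 1.74, while SPI1 was at 0.52.

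**Figure D4:**
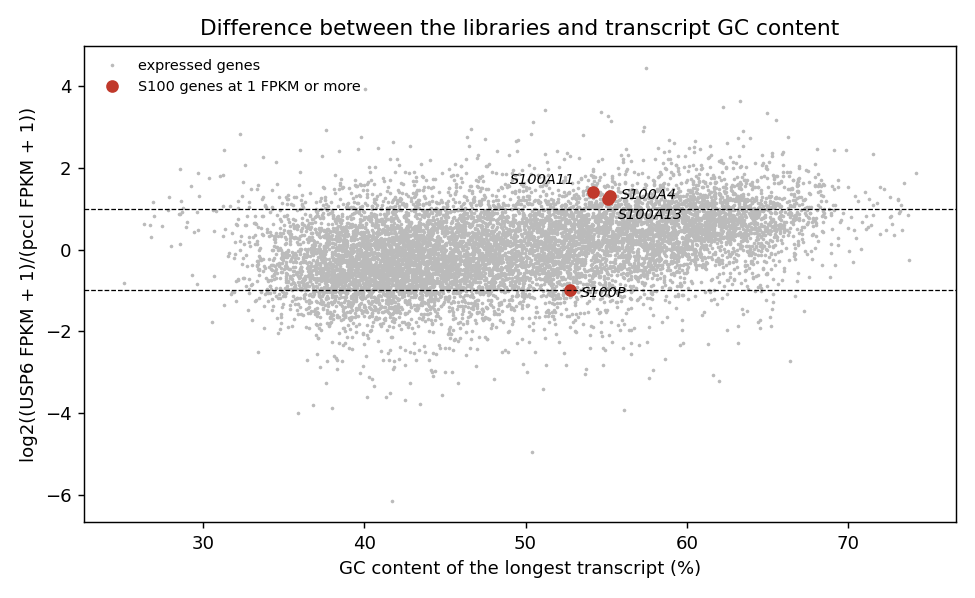
log2 ratio of FPKM + 1 between the USP6 and the pccl library against the GC content of the longest transcript, for expressed genes (grey) and the 4 expressed S100 genes (red). Dashed lines mark 1 and -1. S100A11, S100A4 and S100A13 lie above 1 near 55.1% GC, and S100P lies at the lower line.

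Markers of other cell types are given beside these results, and their part in them was not tested. Among the KASUMI-1 and myeloblast markers, MPO (log2 ratio 2.11) and ANPEP (1.22) made up the 2 higher ones. KIT (-1.29), CD34 (-1.39), AZU1 (-1.45) and PRTN3 (-2.73) made up the 4 lower ones. The 9 expressed markers of this list had their median at -0.77. Across all expressed genes the higher share was 13.7% and the lower share 11.4%, and no marker list was tested against these shares. T and natural killer cell markers summed to 47.8 FPKM in the USP6 library and 39.0 in the pccl library, with 4 of 10 expressed and 2 higher (CD3E and CD2). CD3D, the most abundant of the 4, was instead 1.23-fold lower under USP6 (1.08 to 1.40). CD4 rose 1.74-fold (1.62 to 1.88), short of the limit of 1 in log2 ratio (0.74). B cell markers summed to 13.98 FPKM in the USP6 library and 4.09 in the pccl library, with 3 of 6 expressed and 2 higher (CD79A and CD79B). Neutrophil markers summed to 1.79 FPKM in the USP6 library and 1.58 in the pccl library. Eosinophil, basophil and mast cell markers, 1 of 9 expressed (PRG2), summed to 3.33 FPKM in the USP6 library and 1.45 in the pccl library. Erythroid markers, 1 of 7 expressed (EPOR), summed to 1.66 FPKM in the USP6 library and 0.467 in the pccl library. Megakaryocyte markers, 2 of 6 expressed, summed to 37.2 FPKM in the USP6 library and 20.04 in the pccl library. Nearly all of this was GP1BB, with 35.95 FPKM in the USP6 library and 19.8 in the pccl library, whose locus overlaps SEPTIN5. ITGA2B, the other expressed one, had 1.01 FPKM in the USP6 library and 0.257 in the pccl library. Stromal and epithelial markers, with EPCAM alone of 9 expressed, summed to 8.98 FPKM in the USP6 library and 17.4 in the pccl library. Markers with 0 counts in both libraries numbered 1 of the monocyte, 2 of the eosinophil, basophil and mast cell, 2 of the T and natural killer cell, 0 of the B cell, 3 of the erythroid, 2 of the megakaryocyte and 5 of the stromal and epithelial lists.

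Across all 3585 genes that qualified, those nearest to S100A11 in log2 FPKM over the 2 libraries included RPL4 and GAPDH. RPL4 had 672 FPKM in the USP6 library and 263 in the pccl library, and GAPDH had 485 in the USP6 library and 212 in the pccl library. S100A11 was the most abundant of the 9 genes and had the largest log2 ratio on the scale with 1 FPKM added. By plain fold, S100A13 (2.83-fold higher), S100A4 (3.14-fold higher) and S100P (3.65-fold lower) differed more, with intervals that include the 2.67-fold of S100A11. Likeness over 2 libraries says only that levels in the deposited FPKM were close.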

How the data were processed

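The deposited table gives a count and an FPKM value per gene for 1 KASUMI-1 library per group. The deposited counts are raw whole numbers. Each deposited FPKM value is the gene's count over the column total, mitochondrial genome included, and over a gene length. In 88.9% of 19834 genes that length was, within 0.5%, the summed length of all distinct exons of GENCODE 29, overlapping ones counted repeatedly, against 28.7% for merged exons. HISAT2 2.0.4, StringTie 1.3.3b and edgeR are named in the submitters' processing notes, without roles. Build, annotation and strandedness are not given in the sources used here, and 94.9% of 50111 identifiers had the locus of GENCODE 29 (GRCh38).

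Values of 1 symbol were summed (50464 symbols). A single library per group leaves 0 residual degrees of freedom, and no test could be made. The log2 ratio used a pseudocount of 1 FPKM, with limits of 1 and -1. Folds are FPKM ratios with Clopper-Pearson intervals of the counts at 95%, levels have exact Poisson intervals, and a count of 0 is limited by 3 counts per library. The longest GENCODE transcript gave GC content, whose trend was a lowess fit (span 0.3). Steps were tested on simulated data. The 9 genes and all lists were chosen with earlier results of these data known. Named from each list were up to 4 expressed genes of largest absolute log2 ratio and any at or past 1 or -1, other S100 genes with a count, ANXA1, ANXA2 and ANXA11, and the 3 highest and 3 lowest neighbours, though a few of the genes so chosen are not reported here. Genes nearest to S100A11 needed 5 FPKM and were not pseudogenes. All 9 genes matched a RefSeq promoter, of which the 50 bases after the start were left out. Scaling by the trimmed mean of M values (TMM) used edgeR 4.0.16 in R 4.3.3, and the rest Python 3.11.15 with SciPy 1.17.1, statsmodels 0.14.6, pandas 2.3.3, NumPy 2.4.6 and, for plots, matplotlib 3.10.9.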

Additional observations from a re-analysis of the deposited data

How the results depend on the processing

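S100A11, S100A4 and S100A13 were higher and S100P lower in the USP6 library under every alternative run that gave a value, and S100P had none with a filter of 5 FPKM. S100P, at -0.996, was the gene near a limit. The count of lower genes was 1 in place of 0 with a pseudocount of 0.1 or 0.5, with a median log2 ratio of 0, with TMM scaling, with depth from counts outside the mitochondrial genome, with the same FPKM sum, after centring on GC, with a limit of 0.58, and with merged exon lengths (chosen after seeing the data). The count of higher genes was 1 in place of 3 with a pseudocount of 5, which also brought the median of the expressed genes to 0.74. With the same FPKM sum that median was 1.497, while the median over all expressed genes was 0.21 in place of 0.06. That scaling put 65.2% of all counted genes on the higher side, against 54.7% as deposited. Over all expressed genes, 1396 were higher and 1156 lower as deposited. These were 2295 and 1993 with a pseudocount of 0.1, 364 and 301 with 5, 808 and 682 with a filter of 5 FPKM, 1820 and 2005 with depth outside the mitochondrial genome, 2199 and 1172 with the same FPKM sum, and 2831 and 2489 with a limit of 0.58. No paired analysis was possible because each group held 1 library. Low counts limit S100P most, and cultures were not repeated.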
